A study of Mus musculus with 6 samples.

Results

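The genes described here are 10 core components of the NF-kB pathway: the IkB kinases Chuk and Ikbkb, the subunits Rela, Rel, Relb, Nfkb1 and Nfkb2, and the inhibitors Nfkbia, Nfkbib and Nfkbie. They were chosen by name, as the genes of this set to which the gene column of the denser array assigns at least 1 probe, and all 10 had one. They hold 42 of the 235390 probes of that design with a usable position and 10 of its 24783 gene names. On the sparser array 17 of the 42 probes were also present, covering every gene except Nfkbib.

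DNA of mouse malignant mesothelioma was hybridised with normal DNA of C57BL/6J mice to arrays of short probes. Mesothelioma is a cancer of the cells that line the chest and abdominal cavities. The ratio at a probe is meant to follow the number of copies in the tumour, but single probes could depart from this. The Nfkb2 probe had a log2 ratio of -0.62 on the denser and 0.41 on the sparser array of the same tumour, ARF-128. Tumour DNA carried Cy5 and reference DNA Cy3 on all 6 arrays, with no dye swap. The 5 tumours carry the numbers ARF-110 (sparser array), ARF-104, ARF-112 and ARF-129 (denser array) and ARF-128 (both). All form 1 group with no control tumours, and the shared reference DNA is the sole comparison. Tests of these ratios therefore cannot tell a change in copies from an offset of a probe that recurs between arrays. The study's title speaks of asbestos-induced mesothelioma in Arf knock-out mice, and its description of cells from 4 Arf(+/-) mice, where the titles name 5 tumours. These sources do not state which tumour lies outside the 4, the animals' ages or the asbestos dose. The labels call the material primary malignant mesothelioma cells, except for ARF-104, for which no cell type is given. DNA ratios carry no cell type markers, so this label was not checked. In such bulk DNA, a change in few cells and a smaller change in many cells cannot be told apart. The replicates are tumours, which were taken to come from separate animals. If they did not, the p-values measure only the spread between these samples.

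NF-kB is a family of dimeric transcription factors that inhibitor proteins, the IkB proteins, hold in the cytoplasm. Signals from TNF, Toll-like and other receptors activate the IkB kinases, which mark the inhibitors for destruction and so free the dimers to enter the nucleus. Asbestos fibres are known to activate NF-kB in mesothelial cells, and the study's title names TNF and NF-kB signalling. Nfkb1 and Nfkb2 are made as long precursors whose carboxy-terminal part acts as an inhibitor until it is removed, and Chuk governs that step for Nfkb2.

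The sparser design has 44050 spots and the denser one 243301. The denser array of ARF-128, titled ARF-128PlusMinus (an addition not explained in the sources used here), represents this tumour in all means, and its sparser array is given beside them. The noise of a probe, the SD of log2 ratios estimated from neighbouring probes, was lowest in ARF-110 (0.15) and highest on the denser array of ARF-128 (0.78). The sparser array of ARF-128 had 0.43 and the other 3 tumours lay between 0.36 and 0.49. Every probe of the 10 genes was well above background on every array that carried it, and 0 were saturated. Precision of each mean is limited by how few arrays there are.

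Values are log2 ratios of tumour over reference, averaged over the probes of a gene and centred on each array's autosomal median. Positions are in the mm7 build. Whether a probe lies in an exon, an intron or an untranslated region was not analysed here, since no annotation of that build was used. A ratio of 0.58 corresponds to 3 copies in place of 2 in all cells, and a ratio of -1 to 1 copy. Against the reference, limma called Nfkbie higher and Nfkbia lower among the 10 genes, and the other 8 did not pass. Over all 24781 genes tested, 9.38% were called higher and 8.08% lower. Against the median of their own chromosome, 1 member was called, Nfkbie (higher), and 0 were called lower, where 8.67% of all genes were called higher and 8.97% lower. A count of 1 in 10 in a direction is near these shares and is no result about the set.

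Probes of 4 genes are printed because the results turn on them. Ikbkb is shown because neighbouring probes of this gene differed more than the tumours did, Nfkbie and Nfkbia because they were the genes called, and Nfkb2 because it was read by 1 probe only. All are from the deposited array files, 5′ to 3′ as given there, in lower case throughout. None of the 42 probes holds AGCT or GTAC, the sites of the enzymes AluI and RsaI that cut the DNA before labelling, where 0.0217% and 0.0136% of all probes do. Both sites read the same on both strands.
Ikbkb probe 1, chr8:21449429-21449488: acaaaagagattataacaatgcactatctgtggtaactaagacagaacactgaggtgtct
Ikbkb probe 2, chr8:21456892-21456951: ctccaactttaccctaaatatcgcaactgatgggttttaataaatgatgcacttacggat
Ikbkb probe 3, chr8:21464457-21464516: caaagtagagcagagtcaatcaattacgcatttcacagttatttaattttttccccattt
Ikbkb probe 4, chr8:21474358-21474417: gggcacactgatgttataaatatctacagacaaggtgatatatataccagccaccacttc
Ikbkb probe 6, chr8:21490077-21490135: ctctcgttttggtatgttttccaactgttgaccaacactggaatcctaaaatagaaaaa
Nfkbie probe 1, chr17:43686075-43686128: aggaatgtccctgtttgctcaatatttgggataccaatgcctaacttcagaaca
Nfkbie probe 2, chr17:43689335-43689394: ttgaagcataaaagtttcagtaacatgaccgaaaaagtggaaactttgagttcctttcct
Nfkbie probe 3, chr17:43692462-43692521: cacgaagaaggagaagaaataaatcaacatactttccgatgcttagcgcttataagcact
Nfkb2 probe, chr19:46206660-46206709: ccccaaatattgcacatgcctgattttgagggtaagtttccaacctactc
Nfkbia probe, chr12:53415923-53415980, first 30 bases of 58: acaaatatacaagtccacattctttttgcc

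Chuk encodes IKK-alpha, the kinase that drives processing of the Nfkb2 precursor. Its 6 probes (2 on the sparser design) span 43967499 to 43997643 on chromosome 19. The log2 ratio of Chuk was 0.47 in ARF-110, 0.43 in ARF-129, 0.04 in ARF-112, 0.26 in ARF-104 and 0.30 in ARF-128. All 5 tumours were above the reference, with ARF-112 nearest to it. The mean was 0.30 ± 0.17 (SD, n = 5), with a limma adjusted p of 0.0646, and 0.0625 in the exact two-sided sign-flip permutation test, the smallest p that 5 tumours allow. The segment over Chuk was called gained in all 5 tumours. A segment is a run of probes with a common level, called gained or lost where its mean lies at or past 0.25 in either direction. Its mean was 0.51 in ARF-110, 0.58 in ARF-129, 0.25 in ARF-112, 0.40 in ARF-104 and 0.45 in ARF-128. That segment was the whole of chromosome 19 in 4 tumours and ran to 54839322 in ARF-112, where its mean was only just at the threshold. Of all genes, 2.51% lay in a segment gained in all 5 tumours. In this and later shares by number of tumours, genes without a value in ARF-110 count as not called there.

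Chuk stood lower than the chromosome that carries it. The difference from the chromosome median was -0.15 ± 0.06 (SD, n = 5), below 0 in 5 of 5 tumours, from -0.22 in ARF-112 to -0.05 in ARF-110. It did not pass (limma adjusted p = 0.102). Against the probes within 1 Mb on either side it was larger, at -0.25 ± 0.10 (SD, n = 5), and passed (limma adjusted p = 0.0321), where 22% of all genes were called against such flanks and 12.4% were called lower. That call was lost with GC-corrected ratios (-0.16, limma adjusted p = 0.0643), an alternative chosen after seeing the data. On the probes of both designs alone, Chuk differed from its chromosome by -0.02 (limma adjusted p = 0.902). The probes of Chuk were not of 1 level. On the denser arrays the fifth lay between 0.81 and 1.55 and the fourth between -1.36 and -0.14. In ARF-110 both probes present lay at 0.42 and 0.51, close to the chromosome. The GC content of the 6 probes was 30% to 36.7%. With GC-corrected ratios Chuk differed from its chromosome by -0.08 (limma adjusted p = 0.317).

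Ikbkb encodes IKK-beta, the kinase that phosphorylates the IkB proteins in the response to TNF. Its 6 probes (2 on the sparser design) span 21449429 to 21490135 on chromosome 8. Its log2 ratio was -0.29 in ARF-110, 0.57 in ARF-129, 0.24 in ARF-112, 0.48 in ARF-104 and 0.19 in ARF-128. Here the tumours disagreed in sign, with ARF-110 below the reference and the other 4 above it. The mean was 0.24 ± 0.33 (SD, n = 5), which did not pass (limma adjusted p = 0.224). The segment over the gene was gained in ARF-129 (0.60), ARF-104 (0.45) and ARF-128 (0.44), lost in ARF-110 (-0.38) and not called in ARF-112 (0.09). Of all genes, 12.5% were gained in at least 3 tumours. In ARF-128 and ARF-129 the segment took in all of chromosome 8. In ARF-104 and ARF-112 it ended at 35918562, and in ARF-110 the lost stretch ran from 15866718 to 64056406. The gene followed its surroundings. Against the 1 Mb flanks it differed by -0.04 ± 0.16 (SD, n = 5), and against the whole chromosome by -0.05 ± 0.23 (limma adjusted p = 0.713).

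Within Ikbkb the probes alternated. On the 4 denser arrays probe 1 lay between 1.04 and 1.36 and probe 3 between 0.71 and 1.42. Probes 2 and 4 lay below 0 on all 4, from -0.75 to -0.24 and from -0.74 to -0.27. Probe 6 ranged from -1.66 to 0.14. Each of the 6 kept its own side of the gene's mean, above or below, on all 4 of these arrays. Their starts were 5.68 to 10.04 kb apart, and the highs and lows recurred in 4 tumours, while the 2 probes of the sparser design lay at -0.24 and -0.34 in ARF-110 and at 0.36 and 0.53 in ARF-128. On the denser arrays the same 2 probes, 3 and 6, lay at 1.08 and 0.14 in ARF-104, 0.71 and -0.41 in ARF-112, 1.30 and -1.66 in ARF-128, and 1.42 and -0.06 in ARF-129, farther apart than on either sparser array.

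**Figure D1:**
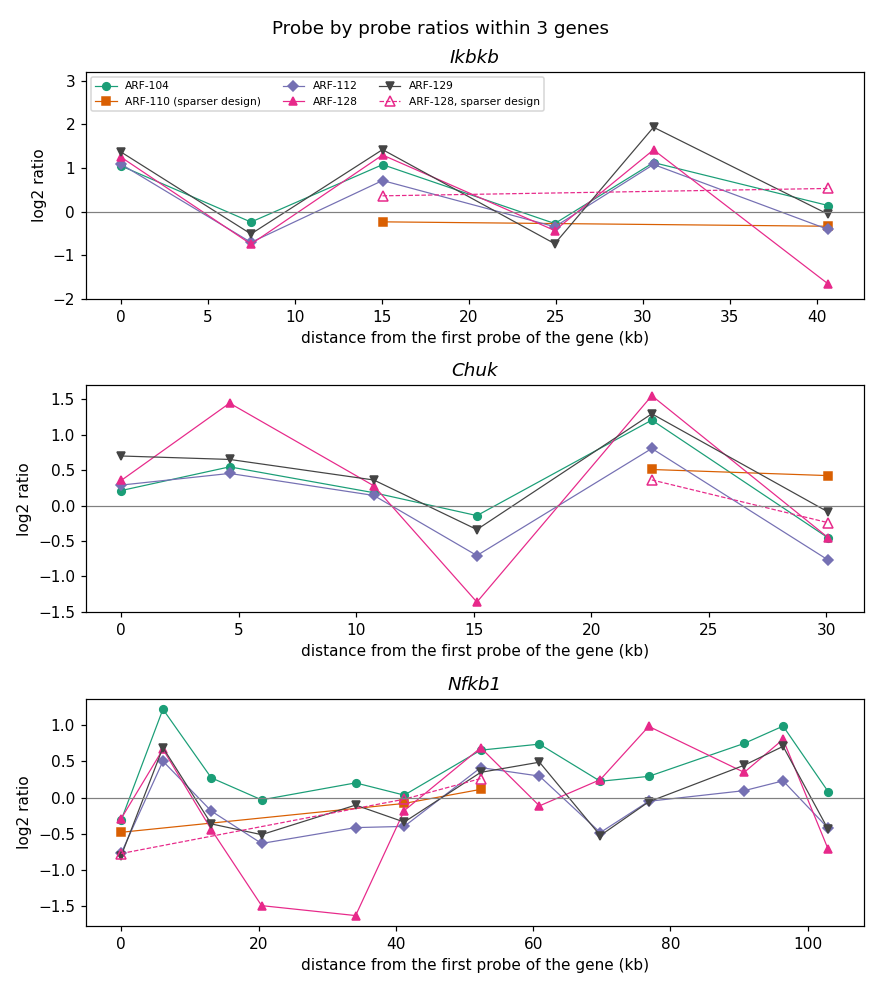
Log2 ratio of tumour over reference (vertical axis) of each probe of Ikbkb, Chuk and Nfkb1 against its distance in kb from the first probe of the gene (horizontal axis), 1 line for each array; open triangles are the sparser array of ARF-128 and squares the sparser array of ARF-110. In Ikbkb the lines of the 4 denser arrays go up and down together, between about 1 and below 0, and the 2 sparser arrays are nearly flat.

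Such offsets were found across the members. Of the 40 member probes in genes with over 1 probe, 30 (75%) lay on the same side of their gene's mean on all 4 denser arrays, and 62.9% of all such probes did. The deviation of a probe from its gene's mean correlated between denser arrays at r = 0.72 to 0.94 over the 40 member probes and at 0.60 to 0.90 over all probes. These probes share the reference DNA, the design and, within a gene, neighbouring positions, so the values are a description. Over the 17 member probes on both designs, the log2 ratio of ARF-128 correlated at r = 0.38 between its 2 arrays, and that of ARF-110 with the denser arrays of ARF-104, ARF-112 and ARF-129 at 0.32 to 0.49. The SD of those 17 ratios was 0.33 in ARF-110, 0.49 and 0.92 on the sparser and denser arrays of ARF-128, and 0.55 to 0.70 in the other 3 tumours. The median GC content was 36.7% in member probes and in all autosomal probes.

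**Figure D2:**
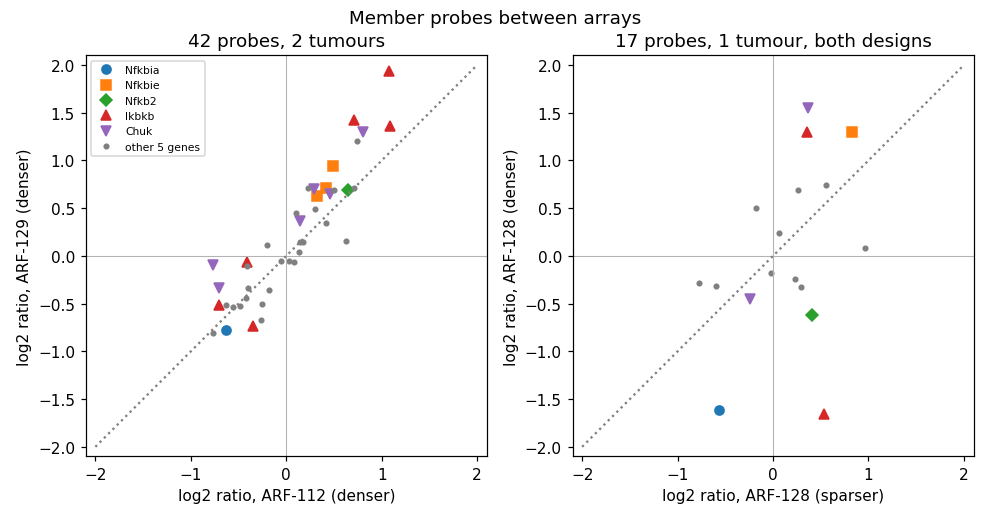
Log2 ratios of the same member probes on pairs of arrays, 1 point for each probe, with the line of equality dotted. On the left the 42 probes of the denser design rank alike in ARF-112 and ARF-129, which are different tumours; on the right the 17 probes on both designs scatter widely between the 2 arrays of ARF-128 (r = 0.38).

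Rela encodes p65, the subunit with a transactivation domain that carries most NF-kB activity in the canonical pathway. Its 3 probes, all on both designs, span 5534111 to 5540454 on chromosome 19. The log2 ratio of Rela was 0.48 in ARF-110, 0.49 in ARF-129, 0.22 in ARF-112, 0.34 in ARF-104 and 0.00 in ARF-128. The denser array of ARF-128 was at the reference and the other 4 tumours were above it. The mean was 0.31 ± 0.20 (SD, n = 5), with a limma adjusted p of 0.0707. On the sparser array of ARF-128 the same 3 probes gave 0.44, and with that array in place of the denser one the mean was 0.39 and passed (limma adjusted p = 0.00941). In that fit 26% of the genes tested were called in either direction. The segment over Rela was that of Chuk, gained in all 5 tumours. Rela stood below its chromosome in 5 of 5 tumours, at -0.14 ± 0.18 (SD, n = 5), with -0.47 in ARF-128 and -0.10 to -0.03 in the others, which did not pass (limma adjusted p = 0.240).

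Nfkb2 encodes the p100 precursor of p52, the subunit of the alternative pathway. It was read by 1 probe, at 46206660 to 46206709 on chromosome 19. In log2 units Nfkb2 read 0.52 in ARF-110, 0.69 in ARF-129, 0.64 in ARF-112, 0.44 in ARF-104 and -0.62 in ARF-128. The denser array of ARF-128 lay far below the reference and the other 4 tumours lay close together above it. The sparser array of ARF-128 gave 0.41 on the same probe. The red (tumour) and green (reference) intensities were 1071 and 1587 on the denser and 1064 and 762 on the sparser array. The 2 arrays differ in design, software version and scan day, so levels of 1 colour cannot be compared between them. The mean was 0.33 ± 0.54 (SD, n = 5), which did not pass (limma adjusted p = 0.227). Without ARF-128 it was 0.57 and passed (limma adjusted p = 0.00684), as it did with that tumour's sparser array (0.54, limma adjusted p = 0.00293). In these fits 21.3% and 26% of the genes tested were called in either direction. The segment was the gained one of chromosome 19 in all 5 tumours, including 0.45 on the denser array of ARF-128. Against the chromosome the gene differed by -0.12 ± 0.57 (SD, n = 5).

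Chuk, Nfkb2 and Rela thus shared 1 gained stretch. Their differences from each other were within the spread between tumours: -0.03 ± 0.57 for Chuk minus Nfkb2, -0.01 ± 0.19 for Chuk minus Rela and 0.03 ± 0.39 for Nfkb2 minus Rela (SD, n = 5). Relb and Nfkbib share chromosome 7, and Relb minus Nfkbib was -0.38 ± 0.33 (SD, n = 4). The 4 pairs had exact sign-flip p values of 0.25 to 0.938, and 0.938 for each after Benjamini-Hochberg adjustment. With 5 tumours the smallest p is 0.0625 and with 4 it is 0.125, so no pair could pass.

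Rel encodes c-Rel, a transactivating subunit best known in lymphocytes. Its 4 probes (2 on the sparser design) span 23697631 to 23722141 on chromosome 11. Rel had log2 ratios of 0.03 in ARF-110, 0.00 in ARF-129, 0.17 in ARF-112, -0.09 in ARF-104 and -0.11 in ARF-128. The tumours lay on both sides of 0 and no segment over the gene was called. The mean was -0.00 ± 0.11 (SD, n = 5; limma adjusted p = 0.999), the smallest SD of the 10 genes. The sparser array of ARF-128 gave 0.39. Rel had the smallest spread against its chromosome too, at -0.03 ± 0.04 (SD, n = 5).

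Relb encodes the partner of p52 in the alternative pathway. Its 3 probes (2 on the sparser design) span 17288587 to 17309409 on chromosome 7. Log2 ratios of Relb were -0.02 in ARF-110, -0.36 in ARF-129, -0.26 in ARF-112, -0.18 in ARF-104 and -0.12 in ARF-128. All 5 tumours were below the reference, ARF-110 by little. The mean was -0.19 ± 0.13 (SD, n = 5), which did not pass (limma adjusted p = 0.170). The segment was called lost in ARF-129 alone (-0.34), where chromosome 7 up to 44214171 was low. Against the chromosome Relb differed by -0.08 ± 0.11 (SD, n = 5; limma adjusted p = 0.401).

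Nfkb1 encodes the p105 precursor of p50, the usual partner of p65. It had the most probes, 13 (3 on the sparser design), over 103 kb from 135379110 to 135482132 on chromosome 3. Nfkb1 had log2 ratios of -0.15 in ARF-110, -0.03 in ARF-129, -0.14 in ARF-112, 0.39 in ARF-104 and -0.09 in ARF-128. ARF-104 stood apart and the other 4 lay slightly below the reference. The mean was -0.00 ± 0.23 (SD, n = 5; limma adjusted p = 0.989). In ARF-104 the gene lay in a gained segment (0.34) that ran from 118072471 to the end of chromosome 3, and 11 of its 13 probes were above 0. There Nfkb1 was 0.38 above its chromosome but 0.04 above its 1 Mb flanks, so it moved with its surroundings. In ARF-112 it lay in a segment called lost (-0.25, just past the threshold).

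Nfkbia encodes IkB-alpha, the inhibitor that NF-kB itself induces. It was read by 1 probe, at 53415923 to 53415980 on chromosome 12, which is on both designs. The log2 ratio of Nfkbia was -0.07 in ARF-110, -0.77 in ARF-129, -0.63 in ARF-112, -0.71 in ARF-104 and -1.61 in ARF-128. It was the lowest of the 10 genes in ARF-104, ARF-112, ARF-128 and ARF-129 and close to the reference in ARF-110. The mean was -0.76 ± 0.55 (SD, n = 5), lower than the reference (limma adjusted p = 0.0299). The sparser array of ARF-128 gave -0.56. Leaving out ARF-129, ARF-112 or ARF-104 in turn, the limma adjusted p was 0.122, 0.0901 and 0.0848, and a random block for scan day gave 0.0836. Normexp background correction moved the mean to -0.39 (limma adjusted p = 0.0501).

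The segment over Nfkbia had a much smaller change than its probe. It was called lost in ARF-112 (-0.43) and ARF-129 (-0.47), in stretches of chromosome 12 that ended at 66589367 and 71261203. In the other tumours it was not called, at -0.07 in ARF-128, -0.08 in ARF-110 and -0.16 in ARF-104. On segment means the gene's value was -0.24 (limma adjusted p = 0.226). Against the chromosome median the probe stood at 0.03 in ARF-110, -0.43 in ARF-129, -0.33 in ARF-112, -0.63 in ARF-104 and -1.56 in ARF-128. This difference of -0.58 ± 0.60 (SD, n = 5) did not pass (limma adjusted p = 0.0919), but was -0.37 and passed (0.0275) with the sparser array of ARF-128. With that array 26.2% of the genes tested were called against their chromosome in either direction. The processed red and green intensities of the probe were 498 and 521 in ARF-110, and 956 and 2819 on the denser array of ARF-128, where it was lowest. The nearest genes with a probe, Psma6 (a proteasome subunit) 72.9 kb before it and the transcript AK014902 109 kb after it, had means of -0.30 ± 0.22 and -0.05 ± 0.26 (SD, n = 5). AK014902 was read by 1 probe.

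Nfkbib encodes IkB-beta, an inhibitor that is degraded more slowly. Its 2 probes, at 25692376 to 25697478 on chromosome 7, are on the denser design only, so ARF-110 has no value. Log2 ratios of Nfkbib were 0.15 in ARF-129, 0.40 in ARF-112, 0.28 in ARF-104 and -0.22 in ARF-128. ARF-128 lay below the reference, and its 2 probes there were at 0.67 and -1.11. The mean was 0.15 ± 0.27 (SD, n = 4; limma adjusted p = 0.420). In ARF-129 the gene's probes were above the reference within a segment called lost (-0.34). Against its chromosome Nfkbib stood at 0.28 ± 0.32 (SD, n = 4), which did not pass (limma adjusted p = 0.171), and at 0.44 ± 0.11 over ARF-104, ARF-112 and ARF-129, the arrays scanned on the same day. Without ARF-128 it passed (limma adjusted p = 0.0217, n = 3). That fit rests on these same 3 arrays for Nfkbib, and 26% of all genes were called in it in either direction.

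Nfkbie encodes IkB-epsilon, an inhibitor that acts mainly on dimers with p65 or c-Rel. Its 3 probes (1 on the sparser design) span 43686075 to 43692521 on chromosome 17. Nfkbie had log2 ratios of 0.02 in ARF-110, 0.76 in ARF-129, 0.41 in ARF-112, 0.70 in ARF-104 and 0.58 in ARF-128. It was the highest of the 10 genes in ARF-129, ARF-128 and ARF-104 and at the reference in ARF-110. The mean was 0.49 ± 0.30 (SD, n = 5), higher than the reference (limma adjusted p = 0.0308) and the highest of the 10 genes. This call was lost without ARF-129 (0.127), ARF-104 (0.116) or ARF-112 (0.0880) and with a random block for scan day (0.128), all limma adjusted p values. Normexp background correction lowered the mean to 0.19 (limma adjusted p = 0.0889) and segment means to 0.12 (0.344). With normexp the 1 member called higher was Chuk (0.20, limma adjusted p = 0.0230). All 3 probes were above 0 on each denser array, from 0.10 to 1.30. The probe on both designs gave 0.82 on the sparser array of ARF-128 and 0.02 in ARF-110, with red and green intensities of 4078 and 2191 in the former and 3388 and 3335 in the latter.

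Nfkbie was also the member called against its own chromosome. The difference was 0.01 in ARF-110, 0.45 in ARF-129, 0.35 in ARF-112, 0.54 in ARF-104 and 0.63 in ARF-128. All were above 0, ARF-110 by almost nothing. The mean was 0.40 ± 0.24 (SD, n = 5; limma adjusted p = 0.0394), and 0.35 ± 0.25 against the 1 Mb flanks (limma adjusted p = 0.0480, where 9.63% of all genes were called higher). With GC-corrected ratios the difference from the flanks was 0.33 and did not pass (limma adjusted p = 0.0562). The segment was called gained in ARF-104 (0.36, from 32730809 to 83140332) and ARF-129 (0.30, the whole chromosome). In ARF-110 (0.00), ARF-112 (0.01) and ARF-128 (-0.07) it was not called. The nearest genes with a probe lay on opposite sides of 0, each read by 1 probe. They were Gm323 before it at 0.56 ± 0.38 (SD, n = 4) and the transcript AK155551 after it at -0.45 ± 0.42 (SD, n = 5).

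The call for Nfkbie against its chromosome was lost in several settings. The limma adjusted p was 0.134 without ARF-104, 0.123 without ARF-112 and 0.141 without ARF-129, and 0 genes of any kind passed in these fits, though 6863, 6904 and 6443 had an unadjusted p under 0.05. A random block for scan day gave 0.246, and limma again called 0 genes (4564 unadjusted). Normexp background correction moved the difference to 0.15 (limma adjusted p = 0.0812). On segment means it was 0, with 0 genes called (803 unadjusted). That 0 is no test of the call, since the segment over Nfkbie also gave the chromosome median in each tumour. Within the 3 arrays scanned on the same day, the difference was 0.45 ± 0.10 (SD, n = 3) for Nfkbie and -0.46 ± 0.15 for Nfkbia. The other scan days held 1 denser array, of ARF-128, and the sparser arrays of ARF-110 and ARF-128, so design and scan day cannot be told apart for ARF-110.

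**Figure D3:**
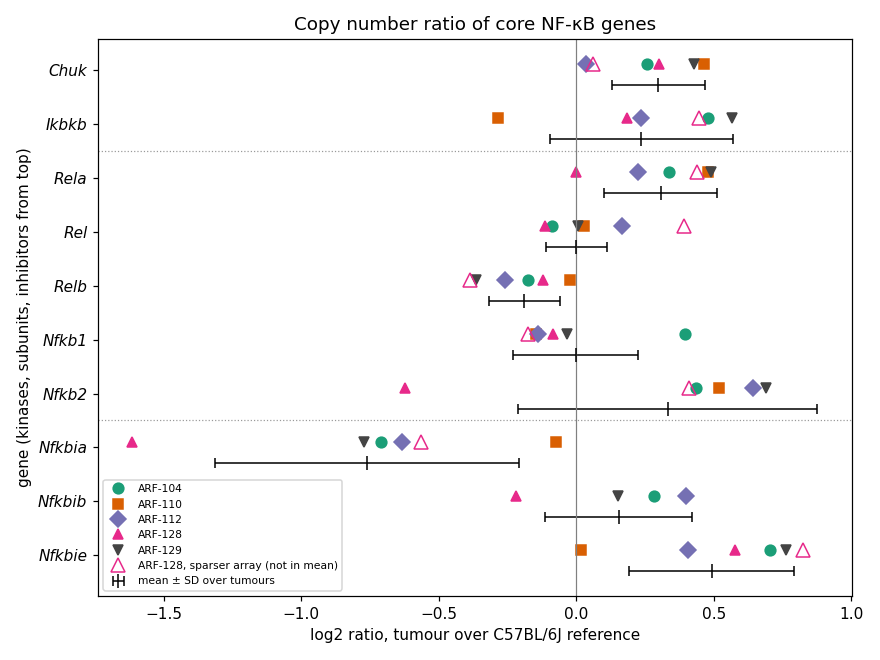
Log2 ratio of tumour over reference (horizontal axis) of the 10 genes (vertical axis; kinases, subunits and inhibitors from top, separated by dotted lines), 1 symbol for each of the 5 tumours, with the mean and SD below them and the sparser array of ARF-128 as an open triangle outside the mean. Nfkbia is lowest and Nfkbie highest, with ARF-110 near 0 in both, and Chuk, Rela and Nfkb2 lie mostly between 0 and 0.69.

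The order of the means from high to low was Nfkbie, Nfkb2, Rela, Chuk, Ikbkb, Nfkbib, Rel, Nfkb1, Relb and Nfkbia. Relb was above Nfkbia in 5 of 5 tumours, by 0.57 on average, with an exact two-sided sign-flip p of 0.0625. Between the other neighbours the means lay 0.0022 to 0.19 apart, with exact p values of 0.25 to 0.938. Next to Nfkbib the p rests on 4 tumours, while the means of Ikbkb and Rel cover 5, so there the gap and the p differ in tumours. As for the pairs above, this test cannot fall below 0.05 with 5 tumours or 4, so it leaves the order of neighbours unsettled. The medians of the means were 0.27 for the 2 kinases, -0.00 for the 5 subunits and 0.15 for the 3 inhibitors, against -0.01 for all genes tested. Relative to their chromosomes they were -0.10, -0.08 and 0.28, against -0.01 for all genes. The inhibitors had the widest range of the 3 roles, from -0.76 to 0.49.

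By tumour, the members lay closest to their chromosomes in ARF-110. There the 9 genes with a value differed from the chromosome median by -0.22 (Ikbkb) to 0.03 (Nfkbia), with an SD over genes of 0.08. On the denser arrays the range was -0.63 to 0.54 in ARF-104, -0.33 to 0.44 in ARF-112, -1.56 to 0.63 in ARF-128 and -0.43 to 0.54 in ARF-129. The SD over genes was 0.28 to 0.60 on these. ARF-110 also had the lowest probe noise. The sparser array of ARF-128, of the same design and scan day, ranged from -0.47 (Nfkbia) to 0.80 (Nfkbie), with a probe noise of 0.43. What goes with the narrow range of ARF-110 was not tested.

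**Figure D4:**
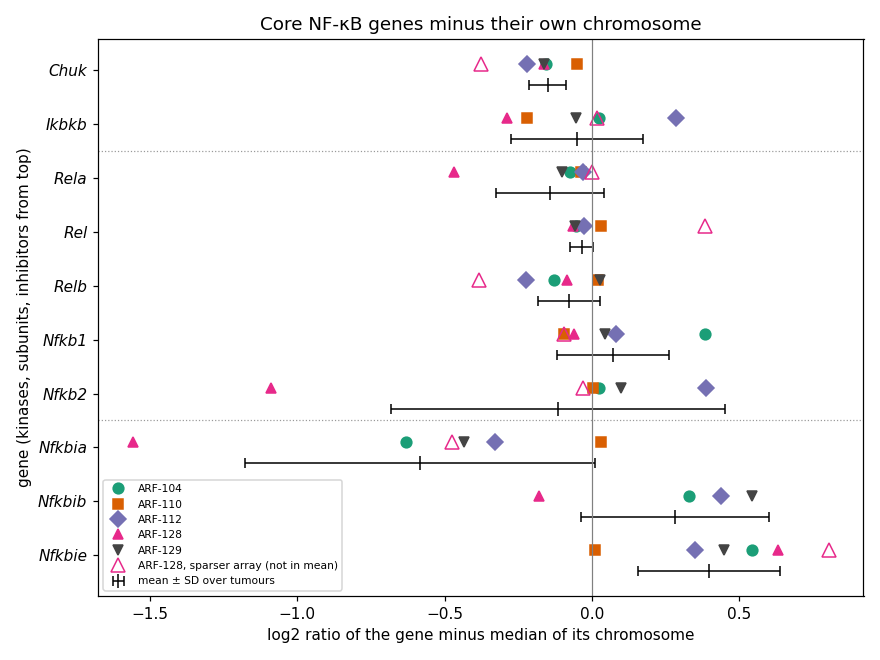
Log2 ratio of each gene minus the median of the other probes of its chromosome (horizontal axis) for the 10 genes (vertical axis), with 1 symbol for each tumour and the mean and SD over tumours below. The points of ARF-110 lie between -0.22 and 0.03, and Nfkbie is the gene above 0 in all 5 tumours.

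Segments placed 21 of the 49 gene-by-tumour pairs (42.9%) in a gain and 6 (12.2%) in a loss, and over all genes 14.8% of pairs were gained and 9.11% lost. Of the 21 gained pairs, 15 belonged to Chuk, Nfkb2 and Rela on the 1 stretch of chromosome 19. The others were Ikbkb in 3 tumours, Nfkbie in 2 and Nfkb1 in 1. Losses were those of Nfkbia in 2 tumours and of Ikbkb, Nfkb1, Relb and Nfkbib in 1 tumour each. Rel alone was called in neither direction. A gain in at least 4 tumours was found for 4.54% of all genes and for 3 members, all on chromosome 19. A loss in at least 1 tumour was found for 37.6% of all genes and for 5 members, and in at least 2 for 5.56% and for 1 member, Nfkbia. At a threshold of 0.35 the counts were 16 gained and 3 lost.

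**Figure D5:**
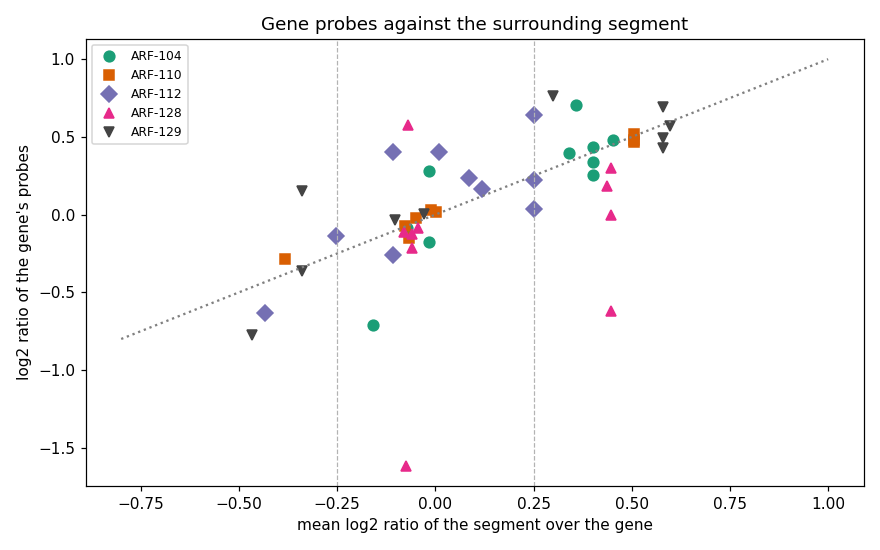
Log2 ratio of each gene's own probes (vertical axis) against the mean log2 ratio of the segment over the gene (horizontal axis), 1 point for each gene and tumour, with the line of equality dotted and the thresholds of ±0.25 dashed. Points of ARF-110 lie near the line, and the points farthest from it are Nfkbia and Nfkb2 on the denser array of ARF-128.

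Other genes of the pathway, from upstream receptors to regulators of the IkB kinases, came from a list of 53. Of these 44 could be tested, 3 are X-linked and were left out, and 6 have no probe of that name. Against their chromosome 4 were higher and 0 lower (9.09%, against 17.6% of all genes in either direction). Against the reference 9 were higher and 1 lower (22.7%, against 17.5% of all genes). The median difference from the chromosome was -0.01, the same as for all genes.

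Bcl3, an IkB-related protein that acts in the nucleus with p50 and p52, had the largest difference from its chromosome, 0.85 ± 0.42 (SD, n = 5; limma adjusted p = 0.0237). It was read by 2 probes, and the segment over it was gained in 0 tumours and lost in 1. Tnfrsf13c, the BAFF receptor, stood at 0.42 ± 0.21 (SD, n = 4), and Lta, the ligand lymphotoxin-alpha, at 0.36 ± 0.25 (SD, n = 5), each read by 1 probe. The limma adjusted p values of these were 0.0395 and 0.0485. Bcl3, Tnfrsf13c and Lta were also higher than the reference, as were Card10 (0.76), a scaffold that links receptors to the IkB kinases, Tradd (0.58), an adaptor of the TNF receptor, Tnf itself (0.53), Btrc (0.52), the F-box protein that recognises phosphorylated IkB, and Tab1 (0.52), a partner of the kinase TAK1. Tnip2, a protein that binds the inhibitor A20, was lower (-0.41 ± 0.27, SD, n = 5; limma adjusted p = 0.0455). Btrc lies on chromosome 19 and was gained in 5 tumours, and its difference from that chromosome was 0.07 ± 0.05 (SD, n = 5). Card10 and Tab1 on chromosome 15 and Tradd on chromosome 8 each lay in a segment gained in 3 tumours. These 3 did not pass against their chromosomes (limma adjusted p = 0.0545, 0.210 and 0.0615). Neither did Tnf, read by 1 probe (0.0561), nor Tnip2 (0.0505).

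Genes with the most similar values over the 5 tumours were sought among those with at least 3 probes on the denser design, by the root mean square difference of log2 ratios. For Ikbkb the nearest on its chromosome was Ank1 (0.06 among 653 genes), an erythrocyte ankyrin, with -0.31 in ARF-110, 0.66 in ARF-129, 0.22 in ARF-112, 0.53 in ARF-104 and 0.25 in ARF-128. For Chuk it was Fbxl11 (0.04 among 391) and for Rela Smc5l1 (0.03), both on chromosome 19. Nfkb1 was nearest to St6galnac3 (0.03), Rel to AK148278 (0.02), Relb to BC057627 (0.05), Nfkbie to Trim26 (0.08) and Nfkbia to BC025436 (0.18) on their own chromosomes. On other chromosomes, among 11035 to 11519 genes for each member, the differences ranged from 0.01 (Rapgef1 for Rel) to 0.16 (Nme6 for Nfkbia). The remaining 7 there were AK042554 for Chuk, Cdkl4 for Ikbkb, Hibadh for Nfkb1, Baalc for Nfkb2, AF183946 for Rela, AB093278 for Relb and 2010315L10Rik for Nfkbie. Nfkbib, with 4 tumours, was left out. Over 5 tumours such a likeness is a description only.

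The nearest genes with a probe on either side of the other members were also read. Next to Ikbkb, Plat stood at 0.21 ± 0.45 (SD, n = 5) and the transcript AK156294 at 0.05 ± 0.47, with ARF-110 below 0 in both. Beside Chuk, Spfh1 stood at 0.18 ± 0.25 and AK139654 at 0.50 ± 0.13. Around Nfkb2 and Rela on chromosome 19, Gbf1 (0.32), Psd (0.67), Htatip (0.57) and Sipa1 (0.23) were above the reference on average. Clptm1 (-0.06) and Sfrs16 (0.16) flank Relb, and Sars2 (-0.66) and Sirt2 (-0.20) flank Nfkbib. AK090099 (0.26) and AK042285 (-0.32) flank Nfkb1, and AK081287 (-0.54) and AK139779 (0.03) flank Rel. Genes on either side of a member could differ in sign, as they did around Nfkb1, Rel, Relb and Nfkbie. AK156294, AK042285 and AK081287 were read by 1 probe each, like both neighbours of Nfkbie. Whether such differences are of copy number or of single probes was not tested.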

How the data were processed

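Tumour and reference DNA were measured on 6 Agilent arrays of 5 tumours. Per the file headers, the authors used Agilent Feature Extraction 8.5.1.1, 9.1.3.1 or 9.5.3.1, which gave a processed intensity per colour and spot and a log10 ratio. The authors' deposited value table holds log10 ratios for the sparser and log2 ratios for the denser design, and was used as an alternative only. Here log2 of processed red over green was used, without control spots or spots with an outlier mark. Repeats of a probe were averaged, and the autosomal median of an array was set to 0. Positions come from the 1 file whose header states mm7, joined through the 41913 usable probe names on both designs. For the other files no build was found in these sources.

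Each gene was given the mean over its probes, also taken minus the median of the other probes of its chromosome. Both were tested against 0 with limma 3.58.1 (intercept, eBayes, Benjamini-Hochberg over 24781 genes with a value in at least 4 tumours, threshold 0.05), with no spread of the reference in the model. Single differences were tested with the exact two-sided sign-flip test. Chromosomes were segmented by penalised least squares (penalty 5 log n, at least 5 probes, threshold 0.25). The limma fit of the difference from the chromosome was tested on simulated data first. The work was done in Python 3.11.15 (numba 0.67.0, numpy 2.4.6, matplotlib 3.10.9, pandas 2.3.3, statsmodels 0.14.6) and R 4.3.3 (statmod 1.5.0).

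The members, the pathway list and the tests were chosen with earlier results of these data known. Some named genes and 1 member probe are not reported here. Named genes are the 10 members, listed pathway genes that passed either limma test, the nearest gene with a probe on either side of each member, and the most similar genes by root mean square difference. Alternatives changed the background correction, centring, GC content, probe summary, chromosome or flank, the array of ARF-128, scan day and each tumour in turn. Chromosome X was not analysed here.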

Additional observations from a re-analysis of the deposited data

Results flagged for a closer look

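Of 20 groups of values examined for a tumour far from the others, 4 held one. Chance alone is set to mark about 1 in 20 such groups. The groups are not independent, since a gene's log2 ratio and its difference from its chromosome were examined separately. The 4 therefore cannot be set against that rate. The log2 ratio of Nfkb1 in ARF-104, 0.39, lay above the other 4 tumours, within a gained segment of chromosome 3. The remaining ones were all on the denser array of ARF-128, the noisiest. They were the log2 ratio of Nfkb2 (-0.62), its difference from the chromosome (-1.09) and the difference of Rela from the chromosome (-0.47). On the sparser array of the same tumour these were 0.41, -0.03 and 0.00.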

How the results depend on the processing

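Values are given as log2. The few arrays, 6 for 5 tumours, and the signal over background limit what these means can show, and ARF-110 rests on the 17 member probes of the sparser design. No paired analysis was possible because all tumours form 1 group. Leaving out each tumour in turn gave 0 to 2 members higher and 0 lower than their chromosome, and 0 to 3 higher and 0 to 1 lower than the reference. Over all genes it gave 0 to 3446 higher and 0 to 3226 lower than the chromosome, and 0 to 3120 higher and 0 to 2642 lower than the reference. Without ARF-129, 0 genes passed against the reference (6420 at an unadjusted p under 0.05). Against the chromosome, members higher fell from 1 to 0 with a scan day block, normexp, and 1 Mb flanks with GC-corrected ratios. The last was an alternative chosen after seeing the data. They also numbered 0 with segment means, which was fixed, since the segment over Nfkbie gave the chromosome median itself. Members lower rose from 0 to 1 with either other reading of ARF-128 (Nfkbia) and with 1 Mb flanks (Chuk). Against the reference, members higher numbered 2 (Nfkbie and Chuk) with the trended prior, at least 3 probes, GC-corrected ratios, probes on both designs or probe medians. All genes higher in these fits numbered 2566, 1049, 2092, 2078 and 2361, in that order. Members higher numbered 3 with the sparser or mean ARF-128 array (Nfkbie, Nfkb2, Rela) and with segment means (Chuk, Nfkb2, Rela), and 0 with scan day as a block (2 unadjusted). With the sparser array 2953 of 19981 genes were higher, and 26% were called in either direction. The 3 members with segment means share 1 segment of chromosome 19 and its value, 0.44, so they are 1 reading. With normexp the 1 member higher was Chuk in place of Nfkbie. Members lower numbered 0 with scan day as a block, normexp or segment means. They also numbered 0 with at least 3 probes, where Nfkbia, with 1 probe, was not tested. All genes called against the chromosome numbered 808 higher and 998 lower with at least 3 probes, 3694 and 3708 with both ARF-128 arrays averaged, 2437 and 1048 with normexp, where the main counts were 2148 and 2223, and 0 and 0 with scan day as a block or segment means. Against the reference, with main counts of 2325 and 2003, they numbered 1049 and 912, 3533 and 3105, 2250 and 698, 231 and 180 with scan day as a block, and 817 and 0 with segment means. Lost pairs numbered 3 at a threshold of 0.35 and 3 to 6 on leaving out a tumour.

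Values near 0 changed sign, none of them called. Nfkb1 was 0.026 with normexp, 0.022 with GC correction, 0.015 centred on the middle chromosomes, and -0.10 to 0.034 on leaving out a tumour. Rel was 0.10 and 0.050 with the sparser and averaged ARF-128 arrays, 0.055 with normexp, 0.031 with GC correction, 0.23 with probes on both designs, 0.018 centred on the middle chromosomes, and -0.042 to 0.028 on leaving out a tumour. Nfkbib was -0.13 on segment means. Relative to the chromosome, Ikbkb was 0.0096 with the sparser ARF-128 array, 0.022 with probe medians, and -0.13 to 0.0082 on leaving out a tumour. Nfkb2 was 0.096 with that array and -0.24 to 0.13 on leaving out a tumour, and Nfkb1 -0.0075 to 0.11. Rel was 0.055 and 0.010 with the sparser and averaged ARF-128 arrays, 0.043 with normexp, 0.0025 with GC correction, 0.22 with probes on both designs and 0.0045 with GC-corrected flanks. Relb was 0.0096 with normexp and 0.034 on segment means. Chuk minus Nfkb2 was 0.036 with normexp, 0.21 with GC correction, 0.069 with probes on both designs, 0.0070 with probe medians and -0.27 to 0.11 on leaving out a tumour. Chuk minus Rela was 0.053 with GC correction, 0.096 with probes on both designs, 0.15 with probe medians and -0.086 to 0.037 on leaving out a tumour. Nfkb2 minus Rela was -0.038 with normexp, -0.16 with GC correction and -0.071 to 0.19 on leaving out a tumour. Except where fewer genes, tumours or probes entered, the cause was not tested.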
